A study of Mus musculus with 8 samples.

Results

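Selenoproteins carry selenocysteine, an amino acid inserted at a UGA codon that would otherwise end translation. The 7 genes described here encode a selenium transporter of the blood, 3 glutathione peroxidases, 2 thioredoxin reductases and a methionine sulfoxide reductase: Selenop, Gpx1, Gpx3, Gpx4, Txnrd1, Txnrd2 and Msrb1. They were chosen by name, with every probe set that the platform annotation pairs with exactly 1 of these symbols. That gave 8 probe sets, 2 of them for Gpx4, of 21218 probe sets with a single symbol, which stand for 18820 genes. Selenop was singled out because of its difference between tolerant and rejecting samples on these same arrays, and the others joined it as its family, so the differences between the groups are given below as a description, with no test.

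The tolerant group held CD3-positive T cells from tissue grafts in wildtype CD1 mice, an outbred stock, that had received antibodies against CD4, CD8 and CD40L, the signal by which helper T cells license antigen-presenting cells. The rejecting group held the same cells from untreated wildtype CD1 mice. In both groups the graft had been derived from human embryonic stem cells and the cells were taken after 30 days, with 4 arrays numbered 1 to 4 in each group. The labels do not say whether a sample is 1 mouse or a pool, or that the samples are separate animals. The SDs here therefore measure the spread between samples, which may be technical. Standard errors come from limma, which moderates them with the spread of all probe sets.

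The arrays fell into a pair of sets that cut across the groups. The share of genes above background was 15.9% to 16.3% on tolerant arrays 3 and 4 and 9.12% to 14.3% on rejecting arrays 3 and 4. It was 2.52% to 2.77% on tolerant arrays 1 and 2 and 4.81% to 5.57% on rejecting arrays 1 and 2. Background here is a line drawn for each array from 1182 olfactory and vomeronasal receptor probe sets, at the value that 99% of them did not exceed. Of the 7 measured T cell markers, Cd3e and Cd5 lay above the line on 5 of 8 arrays and Cd3d and Cd247 on 0. Values are therefore given for arrays 3 and 4 and for arrays 1 and 2 apart, as well as for all 8.

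Selenium enters the body as food and reaches most tissues as selenoprotein P, made chiefly by the liver and taken up through receptors of the LDL receptor family. Inside cells the selenium is used for enzymes whose selenocysteine sits in the active site. Glutathione peroxidases reduce peroxides with glutathione, thioredoxin reductases keep thioredoxin reduced, and methionine sulfoxide reductases repair oxidised methionine. In T cells, GPX4 is known in mice for protecting membranes from lipid peroxidation and the cell from ferroptosis, and thioredoxin reductase 1 for supporting proliferation.

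The promoters of 3 members are shown because Selenop and Gpx3 had the largest differences on arrays 3 and 4, and Txnrd1 is a textbook target of the oxidative stress factor NRF2. Each line gives the 250 bases before an annotated start in RefSeq on GRCm38.p6, plus strand, 5′ to 3′. Capitals mark matches to 3 motifs, each searched on both strands. One is GTAAACA, a site of the FOXO factors. Another is the TATA box, TATAAA, to which the transcription machinery binds. The last is TGACNNNGC, the core of the antioxidant response element that NRF2 binds.
Selenop, chr15:3270727-3270976: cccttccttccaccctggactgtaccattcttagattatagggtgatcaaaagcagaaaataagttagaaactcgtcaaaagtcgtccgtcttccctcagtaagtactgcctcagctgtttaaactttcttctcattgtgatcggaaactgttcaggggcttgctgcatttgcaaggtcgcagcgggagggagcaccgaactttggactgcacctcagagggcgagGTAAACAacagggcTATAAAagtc
Gpx3, chr11:54902604-54902853: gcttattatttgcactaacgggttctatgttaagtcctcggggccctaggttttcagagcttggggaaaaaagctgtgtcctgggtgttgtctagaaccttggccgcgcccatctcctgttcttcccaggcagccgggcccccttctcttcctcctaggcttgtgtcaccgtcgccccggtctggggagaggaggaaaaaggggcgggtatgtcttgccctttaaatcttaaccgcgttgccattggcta
Txnrd1, chr10:82858956-82859205: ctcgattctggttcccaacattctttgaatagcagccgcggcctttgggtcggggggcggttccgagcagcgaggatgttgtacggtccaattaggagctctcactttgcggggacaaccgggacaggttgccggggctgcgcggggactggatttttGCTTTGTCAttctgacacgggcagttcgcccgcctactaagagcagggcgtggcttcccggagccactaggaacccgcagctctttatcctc

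The Selenop window held the FOXO motif from 24 bases and the TATA box from 10 bases before the start, without overlap. The Txnrd1 window held the antioxidant response element core on the opposite strand, from 92 bases before the start. The Gpx3 window held none of the 3 motifs. Selenop has 3 annotated starts and Txnrd1 has 3, and the windows shown belong to the start with matches. Over the 14 windows of the 7 genes, the FOXO motif was in 1, the antioxidant core in 1 and the TATA box in 2. The other TATA box match was in the Msrb1 window, on the opposite strand, from 241 bases before the start. Of 32851 windows of the same length over all genes, 3.17% held the FOXO motif, 10.2% the antioxidant core and 12.4% the TATA box. A match is a stretch of letters and not a measured binding site.

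Selenop was high on 2 of the 8 arrays, both tolerant. The probe set of Selenop (10422598), which encodes the selenium transporter of plasma, read 0.80, 0.85, 2.73 and 2.75 on tolerant arrays 1 to 4, against 0.18, 0.71, 0.57 and 0.47 on rejecting arrays 1 to 4, as log2 RMA values. The groups did not overlap, but the margin between tolerant array 1 and rejecting array 2 was small, and only tolerant arrays 3 and 4 lay above their background lines of 1.05 and 0.99. On arrays 3 and 4 Selenop averaged 2.74 ± 0.01 in tolerant and 0.52 ± 0.07 in rejecting samples (SD, n = 2 each), which is 2.22 higher in tolerant samples on the log2 scale (standard error 0.11). The rejecting samples were not above background there, so the ratio has only a bound: with their values raised to their lines, whose mean was 1.08, Selenop was at least 3.17-fold higher in tolerant samples. In cell samples of this kind, fewer cells that make a transcript and less of it per cell cannot be told apart. On arrays 1 and 2 it averaged 0.82 ± 0.03 in tolerant and 0.45 ± 0.37 in rejecting samples (SD, n = 2 each), all below the line.

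Gpx3, which encodes the secreted glutathione peroxidase that the kidney releases into plasma, was uneven within each group. Its probe set (10376201) read 0.82, 0.15, 3.36 and 2.06 on tolerant arrays 1 to 4, against 0.39, 0.46, 0.70 and 1.86 on rejecting arrays 1 to 4. Tolerant array 3 stood highest, and rejecting array 4 reached close to tolerant array 4, while rejecting array 3 lay under its line of 1.01. On arrays 3 and 4 the means were 2.71 ± 0.92 in tolerant and 1.28 ± 0.82 in rejecting samples (SD, n = 2 each), which is 1.43 higher in tolerant samples on the log2 scale (standard error 0.54). That difference was 0.77 without tolerant replicate 3 and 0.85 without rejecting replicate 3. Over all 8 arrays it was 0.74 (standard error 0.64), and the groups overlapped. It was 0.15 without tolerant replicate 3 and 1.22 without tolerant replicate 2.

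Gpx1 and Gpx4, the intracellular glutathione peroxidases, were above background on all 4 arrays numbered 3 and 4 and on 0 of those numbered 1 and 2. Gpx1 (10588899), the abundant cytosolic enzyme, read 1.05, 0.77, 1.61 and 1.81 on tolerant arrays 1 to 4, against 0.79, 0.91, 1.34 and 1.25 on rejecting arrays 1 to 4. On arrays 3 and 4 both tolerant samples lay above both rejecting samples, with means of 1.71 ± 0.14 and 1.30 ± 0.07 (SD, n = 2 each) and a difference of 0.42 on the log2 scale (standard error 0.12). On arrays 1 and 2 the groups overlapped and the difference was 0.06.

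Gpx4, which reduces lipid hydroperoxides in membranes, differed little between the groups in both of its probe sets. The first (10363000) read 0.88, 0.43, 1.53 and 1.48 on tolerant arrays 1 to 4, against 0.64, 0.86, 1.44 and 1.36 on rejecting arrays 1 to 4. The second (10364675) read 1.18, 0.42, 1.40 and 1.37 on tolerant arrays 1 to 4, against 0.66, 0.77, 1.20 and 1.17 on rejecting arrays 1 to 4. Both were higher on arrays 3 and 4 of either group than on arrays 1 and 2. On arrays 3 and 4 the differences were 0.10 and 0.20 on the log2 scale, each with a standard error of 0.10. On arrays 1 and 2 they had opposite signs, -0.10 and 0.08, with standard errors of 0.19 and 0.24.

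The reductases lay near or under background. Txnrd1 (10365260), the cytosolic thioredoxin reductase, read 1.01, 0.89, 1.31 and 0.99 on tolerant arrays 1 to 4, against 0.67, 0.73, 1.03 and 0.80 on rejecting arrays 1 to 4. It exceeded the line on 1 tolerant and 1 rejecting array, both numbered 3. Its difference was similar in size in the sets, 0.23 on arrays 3 and 4 and 0.25 on arrays 1 and 2 on the log2 scale, with standard errors of 0.16 and 0.15. Txnrd2 (10434191), the mitochondrial reductase, lay between 0.16 and 0.51 in tolerant and between 0.28 and 0.48 in rejecting samples. Msrb1 (10442596), which repairs methionine-R-sulfoxide, lay between 0.38 and 0.81 in tolerant and between 0.22 and 0.96 in rejecting samples. Neither exceeded the line on any of the 8 arrays, so small differences for these genes do not show that their expression was alike.

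**Figure D1:**
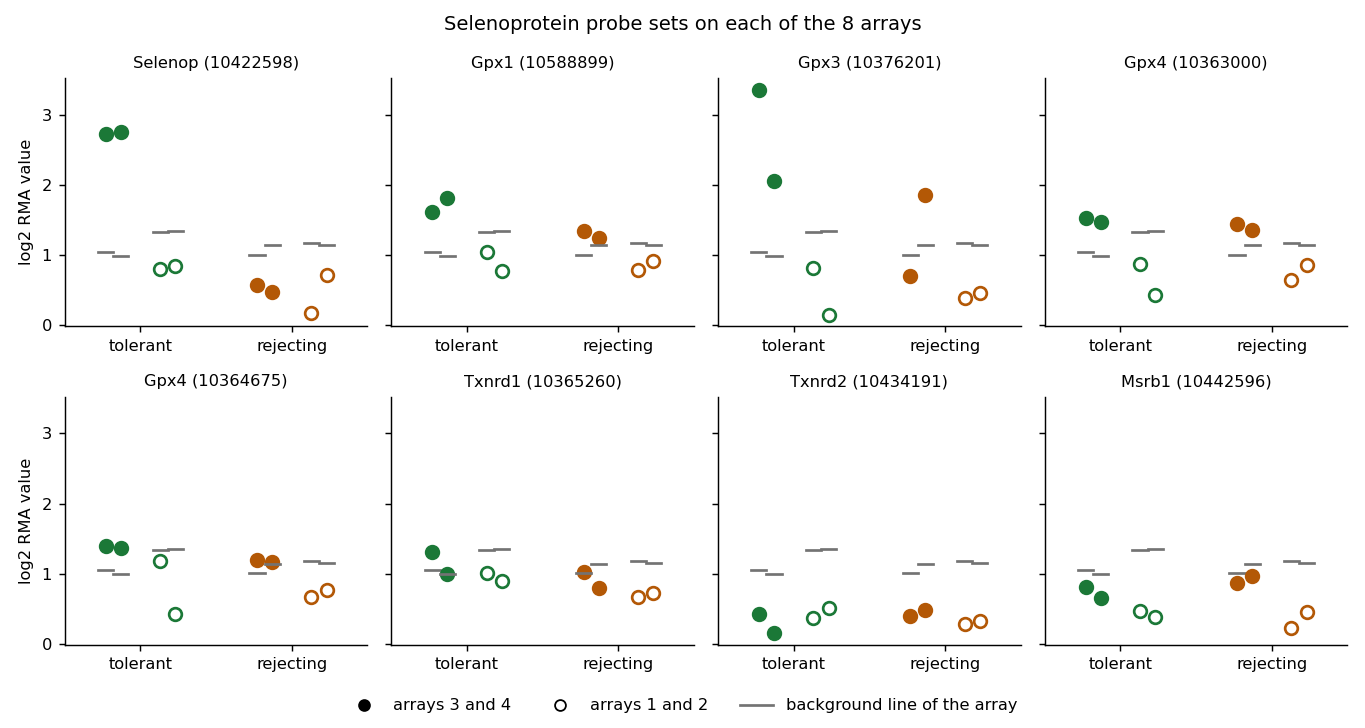
Log2 RMA value (vertical axis) of each of the 8 probe sets on each array, tolerant left and rejecting right in each panel; filled points are arrays 3 and 4, open points arrays 1 and 2, and short grey bars the background line of that array. Selenop stands above the line on tolerant arrays 3 and 4 only, Gpx3 also on rejecting array 4, and every open point lies under its line.

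Counted over the 8 probe sets, 6 were higher and 2 lower in tolerant samples on arrays 3 and 4, with a median difference of 0.22 on the log2 scale. Over all 21218 probe sets the median was -0.01 and 48.2% were higher. In 5 of the 8 both tolerant values lay above both rejecting values, which 19.3% of all probe sets did, and Msrb1 lay the other way, as did 20.0%. The limma test over all probe sets called 1 of the 8, Selenop, among 0.0518% called in all. Without tolerant replicate 3, or without tolerant replicate 4, it called 0 of all probe sets. Since that contrast chose Selenop, nothing is read from it. Over all 8 arrays 6 were higher and 2 lower, with a median of 0.19, and Selenop alone did not overlap, as did 1.09% of all probe sets in that direction and 1.13% in the other. On arrays 1 and 2, 7 were higher and 1 lower, with a median of 0.08, and in Selenop, Txnrd1 and Txnrd2 both tolerant values lay above both rejecting values, as in 17.2% of all probe sets. The opposite order, shown by 0 of the 8, held in 17.1%.

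**Figure D2:**
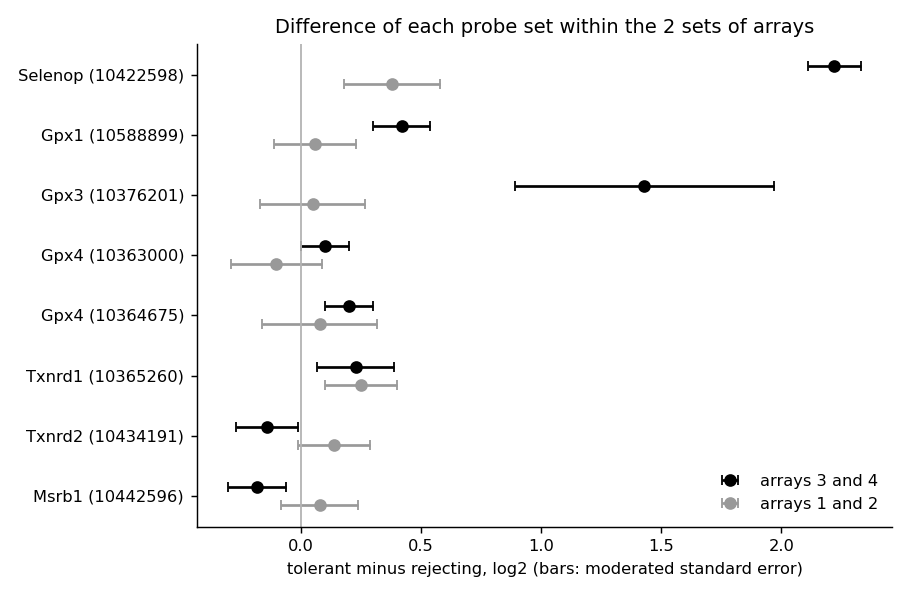
Difference in log2 RMA value, tolerant minus rejecting (horizontal axis), of each probe set on arrays 3 and 4 (black) and on arrays 1 and 2 (grey), 2 against 2 arrays each; bars are moderated standard errors. Selenop lies at 2.22 and Gpx3 at 1.43 on arrays 3 and 4, and the other 6 lie between -0.18 and 0.42.

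Gpx1, Gpx3 and Gpx4 averaged higher on arrays 3 and 4 than on arrays 1 and 2 in both groups, and Selenop in tolerant samples. Selenop averaged 1.92 higher on arrays 3 and 4 than on arrays 1 and 2 in tolerant samples and 0.07 higher in rejecting samples, where the values of the sets overlapped. For Gpx3 these values were 2.23 and 0.86, and for Gpx1 0.80 and 0.44, tolerant samples first. The Gpx4 probe sets had 0.85 and 0.58 in tolerant and 0.65 and 0.46 in rejecting samples. Thus the Gpx4 and Gpx1 transcripts were read above background in the same arrays of either group, whereas Selenop was read above background in the tolerant ones only.

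Among the other selenoproteins, 12 of 17 measured genes were higher and 5 lower in tolerant samples on arrays 3 and 4, with a median of 0.12, and 0 passed the test in either direction. Over all 8 arrays, 8 were higher, 9 lower and 0 passed, where limma called 0% of all probe sets, and 2.89% when p-values were left unadjusted. Selenof (10496629), a selenoprotein of the endoplasmic reticulum, read 0.23, 0.88, 1.97 and 1.68 on tolerant arrays 1 to 4, against 0.53, 0.83, 0.90 and 0.78 on rejecting arrays 1 to 4. Its difference on arrays 3 and 4 was 0.99 ± 0.14 on the log2 scale (standard error, limma adjusted p = 0.183). The tolerant arrays 3 and 4 were the high ones, as for Selenop, and the others lay below background. Selenow, a small selenoprotein abundant in muscle, had a difference of 0.16 there and was above background on all 4 arrays. Gpx2, the gastrointestinal glutathione peroxidase, Selenon, of the endoplasmic reticulum, and Selenoi, an enzyme of phospholipid synthesis, had 0.16, 0.17 and -0.10. Of the 17 genes, 12 were above background on 0 of the 8 arrays.

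Genes that make or take up selenoproteins were close to background. Of 10 measured genes for selenocysteine synthesis and selenium uptake, 6 were higher and 4 lower on arrays 3 and 4, with a median of 0.07 and 0 passing. Eefsec, the elongation factor that delivers selenocysteine, had a difference of -0.24 (limma adjusted p = 0.705), and Lrp8, a receptor for selenoprotein P, had -0.01. Secisbp2, which binds the insertion element in the message, had -0.14, its paralogue Secisbp2l had 0.12, and Scly, which recovers selenium from selenocysteine, had -0.08. The other 9 besides Eefsec lay above the line on 0 arrays, including Lrp2, the kidney receptor for selenoprotein P. Of the 7 homologues that use cysteine in place of selenocysteine, 4 were higher and 3 lower with 0 passing. Gpx7, of the endoplasmic reticulum, was the only one of these above background on any array, with a difference of 0.09 on arrays 3 and 4. Msrb2, Gpx6, Msrb3 and Msra had -0.05, 0.25, 0.25 and -0.04.

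The thioredoxin system that the reductases serve gave 5 higher and 7 lower of 12 measured genes on arrays 3 and 4, with a median of -0.02 and 0 passing. Txnip, the inhibitor that binds thioredoxin, read 1.11, 0.85, 2.96 and 2.42 on tolerant arrays 1 to 4, against 1.10, 0.67, 1.19 and 0.79 on rejecting arrays 1 to 4. Its difference on arrays 3 and 4 was 1.70 ± 0.23 on the log2 scale (standard error, limma adjusted p = 0.161). The cytosolic thioredoxin Txn1 had differences of 0.77 on arrays 3 and 4 and 0.72 on arrays 1 and 2, with limma adjusted p = 0.614 on arrays 3 and 4. Prdx1, a peroxiredoxin, Txn2, the mitochondrial thioredoxin, and Srxn1, which restores oxidised peroxiredoxins, had -0.13, -0.06 and -0.01.

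Glutathione genes gave 8 higher and 4 lower of 12 measured, with a median of 0.10 and 0 passing on arrays 3 and 4. Gstp1, a glutathione transferase, was above background on all 8 arrays and differed by 0.48 (standard error 0.38). Gsr, which regenerates glutathione, and Slc3a2, a subunit of the cystine transporter, had 0.16 and 0.44. The subunits of the enzyme that begins glutathione synthesis, Gclc and Gclm, had 0.12 and -0.01 and were above background on 0 arrays. Of 8 genes of the NRF2 pathway and other antioxidant enzymes, 6 were higher and 2 lower with 0 passing and a median of 0.27. Sod1, the cytosolic superoxide dismutase, had -0.39 (standard error 0.46), Cat, catalase, had 0.25, and Hmox1, which degrades haem, had 0.74 (limma adjusted p = 0.282). Keap1, the inhibitor of NRF2, and Sod2, the mitochondrial superoxide dismutase, had 0.22 and 0.29.

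Of 11 genes tied to lipid peroxidation and ferroptosis, the process that GPX4 opposes, 5 were higher and 6 lower on arrays 3 and 4, with a median of -0.02 and 0 passing. Fth1 (10461402), the ferritin heavy chain that stores iron, read 1.31, 1.49, 4.81 and 4.53 on tolerant arrays 1 to 4, against 1.86, 1.55, 2.45 and 2.79 on rejecting arrays 1 to 4. Its difference was 2.05 on arrays 3 and 4 (limma adjusted p = 0.0567) and -0.30 on arrays 1 and 2. The difference between these sets passed as an interaction (limma adjusted p = 0.0163), a test that called 0.0566% of all probe sets, and 0 of them without tolerant replicate 3 or after quantile normalization. Ftl1, the ferritin light chain, had 0.44 on arrays 3 and 4. Alox15, a lipoxygenase, Lpcat3, which loads phospholipids with polyunsaturated fatty acids, and Aifm2, a suppressor of ferroptosis, had -0.11, 0.40 and -0.07. Over the 77 measured genes of these 7 lists, the limma test called 0 on all 8 arrays, 0 on arrays 3 and 4 and 0 on arrays 1 and 2. With p-values left unadjusted it would call 3, 10 and 5 of the 77, beside 2.89%, 7.21% and 5.15% of all probe sets.

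**Figure D3:**
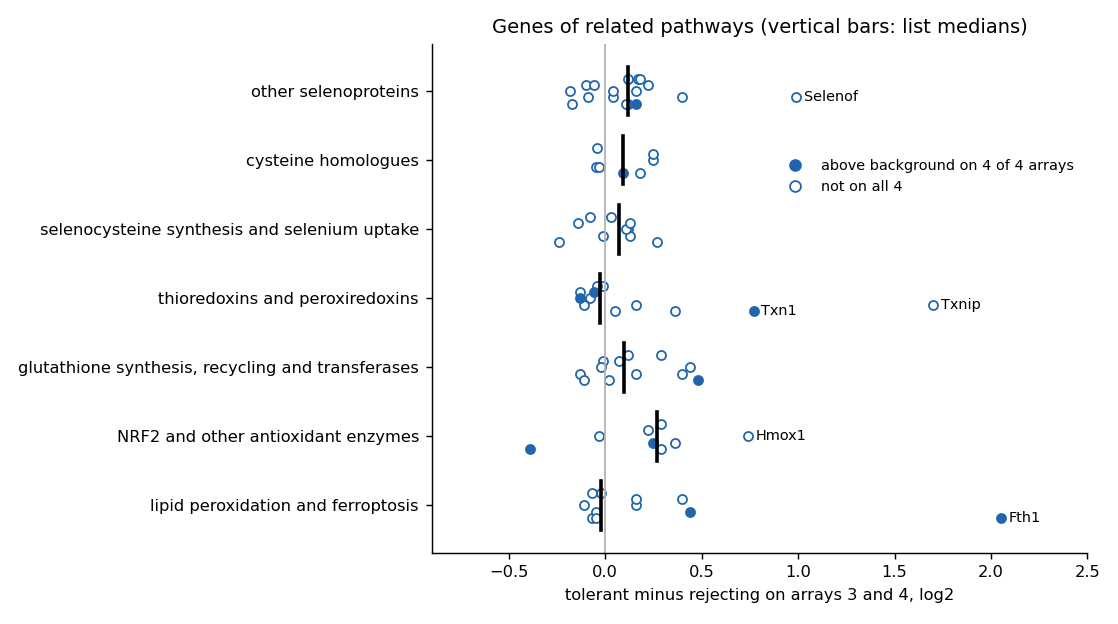
Difference in log2 RMA value, tolerant minus rejecting, on arrays 3 and 4 (horizontal axis) of each measured gene of the 7 related lists; filled points were above background on all 4 arrays, and vertical bars are list medians. Most points lie close to 0 and medians between -0.02 and 0.27, with Fth1 at 2.05, Txnip at 1.70 and Selenof at 0.99 to the right.

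The genes whose pattern over the 8 arrays was most like that of Selenop were Adgrg1, Serpinf1, Tcn2, Lgals3bp and Lbp. Likeness was the mean absolute difference between log2 values centred on each probe set's own mean, over 16426 candidate genes, and was 0.198 to 0.248 for these 5, beside a range of 2.56 for Selenop itself. Adgrg1, an adhesion G protein-coupled receptor, read 3.25 and 2.74 on tolerant arrays 3 and 4, against 0.89 and 0.90 on rejecting arrays 3 and 4. Tcn2, a carrier of vitamin B12, read 2.22 and 2.68 on those tolerant arrays, against 0.95 and 0.58 on those rejecting arrays. For Gpx3 the nearest were Slc25a3, Slc25a5, Cox6c, Canx and Bsg (0.262 to 0.294, beside a range of 3.22). Of these, Slc25a5, the mitochondrial adenine nucleotide carrier, read 3.51 on rejecting array 4 and 1.15 on rejecting array 3. Gpx1 lay nearest to Git2, Man2b1, Slc25a39, Pnpla2 and Thbs2 (0.048 to 0.080, beside a range of 1.04). The nearest to Gpx4 were Usp19, Heatr3, Pxn, Rac3 and Pdxk (0.081 to 0.096, beside a range of 1.10). The arrays share the split into sets, which enters each of these values.

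Marker sums of 7 of the 8 cell types, T cells among them, were higher in both tolerant than in both rejecting samples on arrays 3 and 4, the arrays where Selenop and Gpx3 were high in tolerant samples. The part of these cells in the Selenop and Gpx3 values was not tested. Each sum includes values under background, so a single gene can weigh heavily in it. The endothelial, erythroid and T cell lists had median differences of only 0.02, 0.06 and 0.07 on arrays 3 and 4. Emcn, Slc4a1 and Cd3e in these lists had 1.25, 0.87 and 1.36. Of 10 macrophage markers, 9 were higher in tolerant samples, 0 of them past the test, and their log2 values summed to 15.0 to 16.3 in tolerant and 5.7 to 9.9 in rejecting samples. Of the 3 with the highest mean, C1qb, C1qc and Lyz2 had differences of 2.00, 0.83 and 2.40, while Adgre1, Mertk and Fcgr1 lay above background on 0 arrays. All 10 genes of the fibroblast list were higher, again 0 of them past the test. Their sums were 19.0 to 19.2 in tolerant and 12.0 to 13.8 in rejecting samples. The list includes Thy1, which mouse T cells also express and which had a difference of 0.25. Col1a1, Dcn and Col1a2 had differences of 0.72, 3.21 and 0.53, and Lum, Pdgfra, Pdgfrb, Fap and Postn lay above background on 0 arrays.

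All 10 markers of the distal tubule and collecting duct of the kidney were higher, with sums of 19.0 to 25.2 in tolerant and 7.4 to 8.2 in rejecting samples. Slc12a3 and Calb1 among them passed the test (limma adjusted p = 0.0359 and 0.0440), and without tolerant replicate 3 or tolerant replicate 4 the test called 0 probe sets. Umod, Slc12a3 and Aqp2, the highest in mean, had differences of 3.69, 2.93 and 0.89, and Pvalb lay above background on 0 arrays. Rejecting array 4, where Gpx3 read 1.86, had a lower sum than rejecting array 3 for macrophages, fibroblasts, the proximal tubule, hepatocytes and endothelial cells. Its sum was the higher for T cells and the distal tubule, and the erythroid sum was 2.4 on both.

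Proximal tubule cells are a known source of GPX3, and hepatocytes the main source of selenoprotein P. Of 10 proximal tubule markers 6 were higher, 0 of them past the test, with sums of 6.5 to 8.6 in tolerant and 5.7 to 6.1 in rejecting samples on arrays 3 and 4. Miox read 1.71 and 0.86 on tolerant arrays 3 and 4, against 0.73 and 0.80 on rejecting arrays 3 and 4, and Slc34a1 read 1.93 and 1.33 on those tolerant arrays, against 0.97 and 0.97 on those rejecting arrays. Aqp1 was above background on 1 array, and Lrp2, Cubn, Slc5a2, Slc22a6, Slc22a8, Kap and Slc13a3 on 0. The hepatocyte list was the one whose sums overlapped, with 5.7 to 6.1 in tolerant and 5.5 to 5.9 in rejecting samples and 3 of 9 measured markers higher. Apoa2 was above background on 3 arrays with a difference of -0.09. Hnf4a read 1.24 and 1.59 on tolerant arrays 3 and 4, against 0.93 and 0.67 on rejecting arrays 3 and 4. Alb, Apoa1, Ttr, Fgb, Fga, Tat and Ahsg lay above background on 0 arrays.

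Of 4 measured erythroid markers 3 were higher, with sums of 2.7 to 3.9 in tolerant and 2.4 in both rejecting samples. Slc4a1 read 2.22 and 1.19 on tolerant arrays 3 and 4, against 0.91 and 0.75 on rejecting arrays 3 and 4, and Alas2, Epb42 and Klf1 lay above background on 0 arrays. Of 9 endothelial markers 5 were higher, with sums of 6.5 to 8.1 in tolerant and 4.9 to 6.2 in rejecting samples. Kdr, Tie1 and Emcn, the highest in mean, had differences of -0.06, -0.15 and 1.25. Emcn read 1.74 and 1.52 on tolerant arrays 3 and 4, against 0.49 and 0.28 on rejecting arrays 3 and 4, above background on those tolerant arrays only. Vwf, above background on rejecting array 3 only, had a difference of -0.15. Pecam1, Cdh5, Kdr, Tek, Tie1, Esam and Cldn5 lay above background on 0 arrays. Of 7 measured T cell markers 5 were higher, with sums of 8.2 to 10.8 in tolerant and 6.4 to 8.1 in rejecting samples, and Cd3e, Cd5 and Cd3g had differences of 1.36, 0.36 and 0.58.

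**Figure D4:**
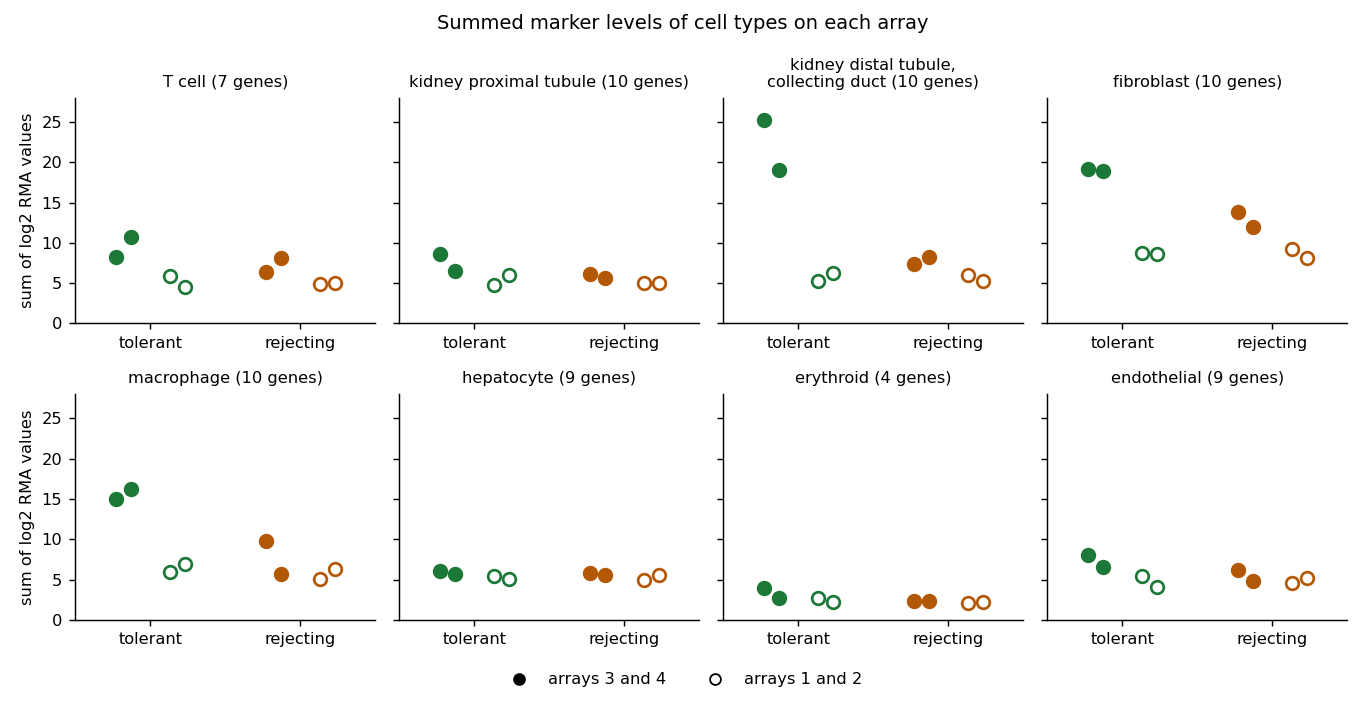
Sum of the log2 RMA values of each cell type's measured markers (vertical axis) on each array, tolerant left and rejecting right; filled points are arrays 3 and 4 and open points arrays 1 and 2. In every list but that of hepatocytes the sums of tolerant arrays 3 and 4 lie above those of the other 6 arrays. The margin is widest for the distal tubule (19.0 to 25.2, against 8.2 at most) and small for T cells (8.2 to 10.8, against 8.1 at most). Hepatocyte sums lie between 4.9 and 6.1 on all 8. The sums include values under background.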

How the data were processed

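The authors deposited log2 values of 35556 probe sets on 8 whole-transcript arrays. They name RMA in Affymetrix Expression Console, per the submitters' processing notes. The software version was not given in the sources used here, nor was the log base. Base 2 was taken from the range of the values, whose highest lie between 12.57 and 12.68. The number of arrays limits the precision.

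Symbols came from the platform annotation: 21218 probe sets had 1, 1881 had several and 12457 none listed. The members and lists were chosen with earlier results of these data known. limma 3.58.1 in R 4.3.3 was fitted to all 21218 probe sets (tolerant minus rejecting, 2-sided, Benjamini-Hochberg adjusted, threshold 0.05), over 8 arrays, within each set of arrays, and as an interaction. The fits were also run on simulated data with independent noise and a shift larger than any member difference. That run says nothing about smaller differences. A gene with several probe sets was represented by that with the highest mean; both are given for Gpx4. Named pathway genes are the up to 5 of each list with the highest mean, plus any that passed. Of the marker lists, values are given for some or all of the 3 with the highest mean, for those that passed, and for Vwf and Thy1. That choice was made after the values were seen, and every marker above background on 0 arrays is named. Of 80 pathway genes 77 were measured, and of 79 markers 69. Sequences came from RefSeq. Plots used matplotlib 3.10.9.

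Each group's mean was subtracted, and tolerant and rejecting arrays of the same number were correlated over probe sets. The correlations were 0.499, 0.507, 0.410 and 0.599 (numbers 1 to 4), above the bound of 0.1. Arrays of the same set with unlike numbers correlated as much (0.411 to 0.581), so these values do not tell pairs of numbers from the split into sets. The labels give no pairs and the main fits used none. Pairing by number entered only as the replicate block. Alternatives were a replicate block, the set as a block, quantile normalization, median centring, trend with robust moderation, all probe sets, a filter on dim probe sets, an adjusted p under 0.10 and leaving out each array.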

Additional observations from a re-analysis of the deposited data

Results flagged for a closer look

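Gstp1 (10464583), a glutathione transferase, read 2.52 in tolerant replicate 4, far from the other 3 tolerant arrays, of which the nearest read 1.82. The gap was 0.953 of the group's range, above Dixon's critical value for 4 samples. This was 1 of 86 groups of 4 arrays looked at over 43 probe sets, and chance alone gives about 1 in 20.

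Fth1 (10461402), the ferritin heavy chain, differed between the sets of arrays by the interaction test. Its difference was 2.05 on arrays 3 and 4, where both tolerant arrays were higher, and -0.30 on arrays 1 and 2 (limma interaction adjusted p = 0.0163). That test called 0 probe sets without tolerant replicate 3 and 0 after quantile normalization.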

How the results depend on the processing

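On arrays 3 and 4 the 11 calls over all probe sets became 8 with the replicate block, 26 with trend and robust moderation, 17 with the filter on dim probe sets, 25 at an adjusted p under 0.10 and 0 with all 35556 probe sets tested. Leaving out an array gave 0 to 48 calls there, with 0 without tolerant replicate 3 or tolerant replicate 4 and 48 without rejecting replicate 4, and each such fit has 1 array on a side, assumed to vary like the others. The limma count of 0 over 8 arrays (613 at an unadjusted p under 0.05) remained 0 under every alternative run, the replicate block (1123) and the set as a block (1187) included. On arrays 1 and 2 it was 0 (1093 at an unadjusted p under 0.05), 0 with the replicate block (1384), and 0 to 2 when an array was left out, the 2 without tolerant replicate 2. The interaction's 12 calls became 0 with quantile normalization (1381 at an unadjusted p under 0.05) and 0 to 76 when an array was left out: 0 without tolerant replicate 3, 2 without tolerant replicate 1, 4 without tolerant replicate 2, 6 without rejecting replicate 1, 2 without rejecting replicate 2, 20 without tolerant replicate 4 or rejecting replicate 3 and 76 without rejecting replicate 4. The causes were not tested. The difference of Selenop lay between 2.17 and 2.27 on arrays 3 and 4, 0.98 and 1.63 over 8 arrays and 0.11 and 0.64 on arrays 1 and 2. That of Gpx3 lay between 0.77 and 2.08, 0.15 and 1.22, and -0.28 and 0.39 on the same arrays. Of 211 values for the 8 probe sets, 208 moved by less than 1 SD, pooled within the groups, and 3, for Gpx4, by more. Leaving out an array cannot move a difference by more than that SD, and a block cannot move it at all. The 208 are therefore no measure of stability. Of the 211 values, 20 changed sign, for Gpx1, Gpx3, Gpx4, Txnrd2 and Msrb1. On arrays 1 and 2 the low signal limits what can be seen: 0 of the 8 probe sets exceeded background there.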
